A study of Homo sapiens with 4 samples.

Results

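Solute carriers are the membrane proteins, numbered in SLC families, that move amino acids, sugars, metal ions, nucleotides, lipids and inorganic ions across the plasma membrane and the membranes of organelles. The genes described here are those whose name in the deposited expression table starts with SLC followed by a digit. Of 11213 gene names, 188 met this rule and 2 were dropped, the erythroid anion exchanger SLC4A1 and the glucose transporter SLC2A1, which leaves 186. They were divided by their known substrates into 22 amino acid carriers, 25 metal carriers, 38 members of the mitochondrial SLC25 family and 96 other carriers. The remaining 5 names begin with SLC but stand for proteins that carry nothing: the scaffolds SLC9A3R1 and SLC9A3R2, the transcription factor SLC2A4RG, the binding partner SLC4A1AP and the opposite-strand gene SLC7A6OS.

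RNA was sequenced from 4 libraries of K562, an established human line of erythroid character derived from chronic myelogenous leukaemia that carries the BCR-ABL1 fusion. The cells had received lentivirus with a short hairpin RNA and were selected with puromycin in both groups. The 2 shControl libraries, whose genotype is given as WT, carry a control hairpin, and the 2 shPHF8 libraries carry a hairpin against PHF8, a histone demethylase. Whether the knockdown libraries 1 and 2 are replicates or differ in their hairpin is unclear from the labels, which also name no separate cultures, so the p-values measure only the spread between these samples. PHF8 itself was at 25.9 and 22.5 TPM in the shControl libraries and at 6.06 and 6.42 TPM in the shPHF8 libraries, so that 25.8% of the control level was left. TPM is a share of the listed transcripts corrected for length, so levels of different genes can be set side by side, but the number of reads behind a value is unknown. Each difference is the mean log2(TPM + 1) of the shPHF8 libraries minus that of the shControl libraries, with its standard error; this scale understates the change of genes with low TPM.

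Amino acid carriers supply dividing cells with building blocks: the SLC7A5 light chain and SLC3A2 heavy chain together exchange large neutral amino acids, SLC1A5 takes up glutamine, and SLC7A11 takes up cystine for glutathione. Among metal carriers, the SLC39 (ZIP) proteins bring zinc into the cytosol and the SLC30 (ZnT) proteins take it out, SLC40A1 (ferroportin) exports iron, and SLC48A1 carries haem out of endosomes and lysosomes. SLC25 proteins sit mostly in the inner mitochondrial membrane and exchange nucleotides, phosphate, carboxylates and cofactors between cytosol and matrix. In erythroid cells several of them serve haem synthesis, among them the mitoferrins SLC25A37 and SLC25A28 and the glycine carrier SLC25A38.

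Several zinc carriers and an iron carrier were higher after knockdown. Zinc is known to induce genes such as SLC30A1 through the metal response element, a short promoter motif. Whether this had a part in the values here was not tested. The 250 bases before the transcription start are shown for 4 zinc and iron carriers that were higher in the shPHF8 libraries and for the 2 metal carriers that were lower (values below). The sequences are RefSeq's on GRCh38.p14, written 5′ to 3′ on the strand of the gene, and capitals mark the core of the metal response element, TGCACNC or TGCGCNC, on either strand. The bases just after the listed start were found in a reference transcript of the same gene for 172 of 221 solute carrier windows. The SLC30A1 window was not among them. SLC30A1, the zinc exporter of the plasma membrane, lies at chr1:211579162-211579411 on the minus strand.
SLC30A1: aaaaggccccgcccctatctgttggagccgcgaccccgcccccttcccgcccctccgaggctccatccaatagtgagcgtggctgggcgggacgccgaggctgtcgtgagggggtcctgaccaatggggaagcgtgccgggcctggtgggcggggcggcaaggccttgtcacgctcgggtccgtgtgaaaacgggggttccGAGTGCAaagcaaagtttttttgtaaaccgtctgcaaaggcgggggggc
SLC40A1 lies at chr2:189580787-189581036 on the minus strand.
SLC40A1: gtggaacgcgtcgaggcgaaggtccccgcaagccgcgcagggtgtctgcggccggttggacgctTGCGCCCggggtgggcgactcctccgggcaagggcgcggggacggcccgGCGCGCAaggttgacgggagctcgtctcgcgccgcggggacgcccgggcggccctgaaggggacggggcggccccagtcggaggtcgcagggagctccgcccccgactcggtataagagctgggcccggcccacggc
SLC39A8, a zinc and manganese importer, has several listed starts, and the window with a core lies at chr4:102345483-102345732 on the minus strand.
SLC39A8: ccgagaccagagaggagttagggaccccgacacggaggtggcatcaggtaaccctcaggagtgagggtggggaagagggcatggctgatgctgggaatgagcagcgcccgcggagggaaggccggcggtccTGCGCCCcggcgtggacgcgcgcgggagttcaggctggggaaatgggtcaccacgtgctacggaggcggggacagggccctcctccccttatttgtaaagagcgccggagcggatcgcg
SLC39A6, another zinc importer, lies at chr18:36129341-36129590 on the minus strand.
SLC39A6: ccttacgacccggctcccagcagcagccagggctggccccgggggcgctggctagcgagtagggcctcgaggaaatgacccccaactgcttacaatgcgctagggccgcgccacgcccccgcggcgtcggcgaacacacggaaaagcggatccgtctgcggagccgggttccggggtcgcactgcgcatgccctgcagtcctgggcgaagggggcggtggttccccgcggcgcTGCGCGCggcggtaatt
SLC48A1 lies at chr12:47772988-47773237 on the plus strand.
SLC48A1: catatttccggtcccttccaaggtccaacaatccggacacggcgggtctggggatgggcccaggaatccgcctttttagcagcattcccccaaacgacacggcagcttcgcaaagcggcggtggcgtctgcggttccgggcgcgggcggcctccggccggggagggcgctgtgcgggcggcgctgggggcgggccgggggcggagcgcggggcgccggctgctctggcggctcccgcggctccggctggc
SLC30A7, which loads zinc into the Golgi, lies at chr1:100895840-100896089 on the plus strand.
SLC30A7: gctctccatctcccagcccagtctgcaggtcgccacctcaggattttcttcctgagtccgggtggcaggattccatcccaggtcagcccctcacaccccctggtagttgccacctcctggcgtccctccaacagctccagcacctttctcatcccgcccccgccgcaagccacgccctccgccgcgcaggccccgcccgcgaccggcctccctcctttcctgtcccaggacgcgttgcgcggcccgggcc

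A core was found in all 4 of the windows shown for the higher genes, which were picked because they hold one, and in neither of the windows of SLC48A1 and SLC30A7. Of the 6 metal carriers that were higher at an unadjusted p under 0.05, 4 had a core in any of their windows, against 10 of all 23 metal carriers found in the RefSeq table. SLC30A5 and SLC39A9, also higher, had none and are not shown. The motif is common. It occurred in 24.8% of the 35116 windows of all genes and in 32.1% of the 221 windows of the 151 solute carrier genes that matched by symbol. These windows were also richer in G and C, with a median of 66.0% against 58.0% over all windows. The E-box CACGTG, read by MYC and related factors, was in 14.5% of the solute carrier windows and in 6.34% of all windows, and it shared bases with a metal response element core in 2 solute carrier windows. The C/EBP-ATF core TGATGNAA of the amino acid response was in 1.81% of the solute carrier windows and in 3.14% of all. The motifs were chosen after the expression values had been seen, and a match is a stretch of letters and not a measured binding site.

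The 186 genes together held 10071 and 10047 TPM in the shControl libraries and 9742 and 10074 TPM in the shPHF8 libraries, 1.01% and 0.991% of the listed TPM on average. The total in 1 shPHF8 library lay below both controls and in the other just above them. A few genes held much of it: the 5 highest had 30.1% of the summed TPM and the 20 highest 57.7%. SLC25A5, which exchanges ADP and ATP across the inner mitochondrial membrane, was the highest, at 1034 and 981 TPM in the shControl libraries and 988 and 953 TPM in the shPHF8 libraries. At the other end, 53 genes averaged under 10 TPM. Amino acid carriers had the highest median level of the classes, 42.4 TPM, followed by metal carriers at 35.6, SLC25 genes at 33.1 and the other carriers at 14.6 TPM.

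With limma and Benjamini-Hochberg adjustment over all 10972 genes tested (those with a mean of at least 1 TPM), no gene passed 0.05, so the share called was 0% over all genes and among the solute carriers. The smallest adjusted p of a solute carrier was 0.0741. At an unadjusted limma p under 0.05, 21 of the 182 solute carriers tested were higher and 26 lower in the shPHF8 libraries, against 9.90% higher, 12.1% lower and 22.0% in either direction over all genes. The members' share in either direction was 25.8%, close to that background. Both shPHF8 libraries lay above both controls for 40 members and below both for 60, against 26.0% and 29.3% of all genes, and 55.3% in either direction. The median difference was -0.05 over the members and -0.02 over all genes. Without a library the count of lower members was 20 (without shControl 1), 15 (without shControl 2), 11 (without shPHF8 1) and 17 (without shPHF8 2), and that of higher members 18, 20, 14 and 14. SLC16A5, SLC25A41, SLC30A3 and SLC6A19 were under the 1 TPM limit and were not tested. SLC25A41 was listed at 0 in all 4 libraries.

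**Figure D1:**
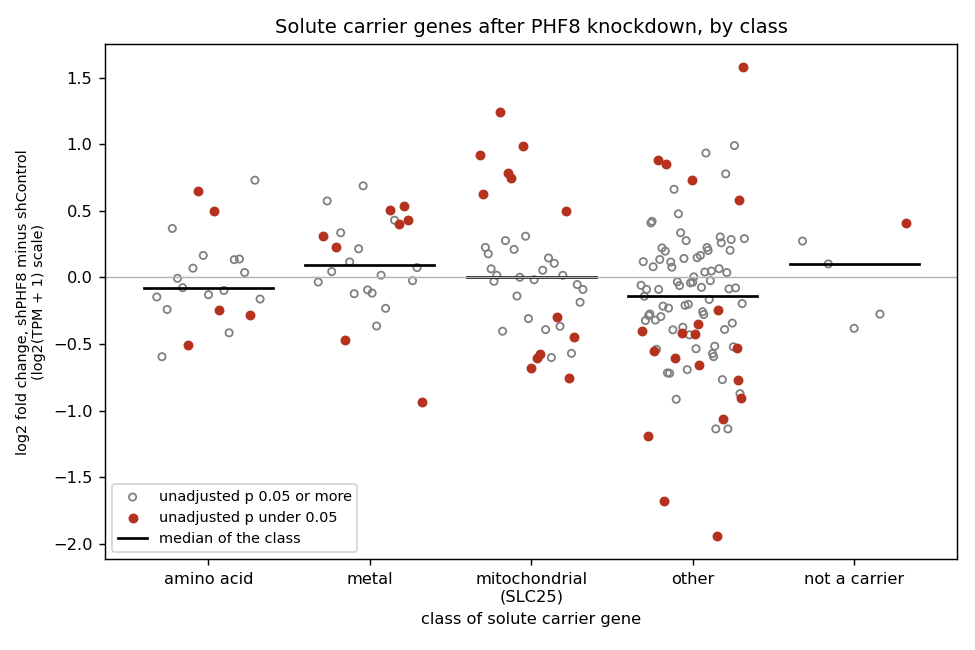
Each point is 1 solute carrier gene; the vertical axis is the log2 fold change of the shPHF8 against the shControl libraries (log2(TPM + 1) scale) and the horizontal axis the class. Filled points have an unadjusted limma p under 0.05, none passes adjustment over all genes, and the bars are the class medians, 0.09 for metal carriers and -0.14 for the other carriers.

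The metal carriers were the class whose summed level stood higher in both knockdown libraries. Their sum was 1235 and 1267 TPM in the shControl libraries and 1425 and 1383 TPM in the shPHF8 libraries, so the groups did not overlap. Of 24 tested, 6 were higher and 2 lower at an unadjusted p under 0.05, 33.3% in either direction, beside 9.90% higher, 12.1% lower and 22.0% in either direction over all genes. Both knockdown libraries lay above both controls for 7 and below for 3, beside 26.0% and 29.3% of all genes. The class median was 0.09. The 6 were 3 zinc importers (SLC39A6, SLC39A8, SLC39A9), 2 zinc efflux carriers (SLC30A1, SLC30A5) and the iron exporter SLC40A1, so carriers that bring zinc into the cytosol and carriers that take it out were both among them. The higher metal carriers were not a stable set when a library was left out. SLC30A1 and SLC30A5 dropped out whichever library it was, and SLC39A9 did so without shControl 2 or either shPHF8 library. With either control or shPHF8 2 left out, carriers not among the 6 were counted instead. Fewer were counted with either shPHF8 library left out. The count of lower ones was 1 with either shPHF8 library left out. Of 11 erythroid marker genes, 6 were also higher in the same libraries (values below), and their part in these counts was not tested. In bulk libraries such as these, fewer cells of a type and less RNA per cell cannot be told apart.

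SLC39A6 was at 32.9 and 34.1 TPM in the shControl libraries and at 46.6 and 49.4 TPM in the shPHF8 libraries. Its groups were well apart, with a log2 difference of 0.50 ± 0.10 and a limma adjusted p of 0.115. SLC39A8 was at 100 and 96.5 TPM against 126 and 135 TPM, again with no overlap (0.40 ± 0.08, limma adjusted p = 0.115). SLC39A9, a ZIP protein of the Golgi, was at 15.8 and 14.5 TPM against 22.0 and 22.9 TPM, 0.53 ± 0.13 apart. Its main transcript did not share this rise: SLC39A9-013 was at 14.1 and 12.8 TPM against 11.6 and 4.24 TPM. That transcript held 89.0% and 87.8% of the gene's TPM in the controls and 52.7% and 18.6% after knockdown. SLC39A7, which releases zinc from the endoplasmic reticulum, was the highest metal carrier, at 163 and 245 TPM in the controls and 271 and 268 TPM after knockdown. The knockdown libraries lay above both controls, but the controls themselves were far apart and the difference of 0.43 ± 0.21 did not reach an unadjusted p under 0.05; without shControl 1 it was 0.14 and without shControl 2 it was 0.72. SLC39A3, a zinc importer of the plasma membrane, lay the other way, at 165 and 149 TPM against 136 and 131 TPM (-0.23 ± 0.09). Over the 10 SLC39 genes, 3 were higher and none lower at an unadjusted p under 0.05, beside 9.90% and 12.1% of all genes. SLC39A6 and SLC39A8 no longer reached that p without shPHF8 2 (0.46 and 0.35), and SLC39A9 without shControl 2, shPHF8 1 or shPHF8 2 (0.48 to 0.56).

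SLC30A1 was at 30.0 and 29.0 TPM in the controls and at 38.4 and 35.3 TPM after knockdown. SLC30A5, which moves zinc into the early secretory pathway, was at 106 and 111 TPM against 131 and 123 TPM. Both pairs of groups were apart by a small margin, 0.31 ± 0.11 and 0.23 ± 0.08. SLC30A7 was lower, at 20.8 and 24.0 TPM against 15.9 and 15.8 TPM (-0.47 ± 0.14, limma adjusted p = 0.183), so the SLC30 carriers did not lie on 1 side. Leaving out any 1 library took SLC30A1 (0.25 to 0.37) and SLC30A5 (0.18 to 0.27) above an unadjusted p of 0.05. SLC30A7 was above it without shControl 2 (-0.37) and without either knockdown library (-0.47).

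The iron exporter and the haem carrier lay on opposite sides. SLC40A1 was at 101 and 91.9 TPM in the controls, and in the knockdown libraries at 135 and 126 TPM (0.43 ± 0.10, limma adjusted p = 0.124); without shPHF8 1 the difference was 0.38 and above an unadjusted p of 0.05. Its main transcript, SLC40A1-001, was at 60.0 and 58.4 TPM against 80.5 and 77.3 TPM, and its share of the gene's TPM stayed between 59.2% and 63.5%. SLC48A1 was at 54.6 and 42.1 TPM against 23.6 and 25.5 TPM, 50.9% of the control level, with a difference of -0.94 ± 0.17 (limma adjusted p = 0.103), the largest among metal carriers. It was also the 1 metal carrier that stayed at an unadjusted p under 0.05 in every alternative run. SLC11A2 (DMT1), which moves iron out of endosomes after transferrin uptake, was at 30.4 and 32.6 TPM against 31.9 and 29.6 TPM, and these overlapped (95% confidence interval -0.36 to 0.29). The copper importer SLC31A1 overlapped as well.

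**Figure D2:**
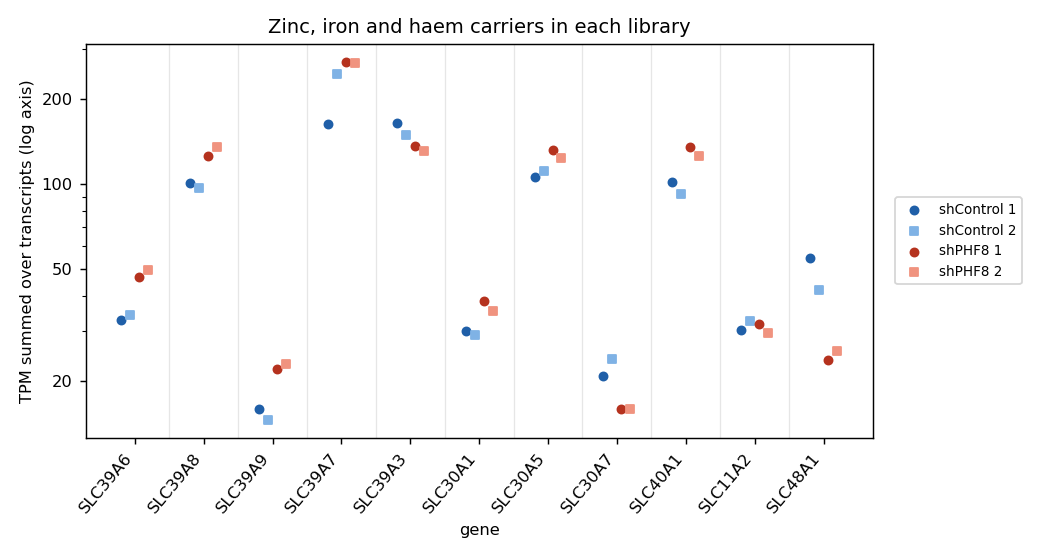
TPM of 11 zinc, iron and haem carriers (log axis) in each of the 4 libraries, circles for number 1 and squares for number 2 of a group, blue for shControl and red for shPHF8. Both red points lie above both blue points for SLC39A6, SLC39A8, SLC39A9, SLC39A7, SLC30A1, SLC30A5 and SLC40A1, below them for SLC39A3, SLC30A7 and SLC48A1, and overlap them for SLC11A2.

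Metal-handling genes outside the solute carriers had 3 of 29 tested higher and 8 lower at an unadjusted p under 0.05. Over all genes the shares were 9.90% and 12.1%. The share of higher genes was near that background, and that of lower genes was above it. The median of the list was 0.07. TFRC, the transferrin receptor, was at 294 and 303 TPM in the controls and at 533 and 548 TPM after knockdown, well apart. MT1X, a metallothionein that binds zinc and is itself induced through metal response elements, was at 4.08 and 10.3 TPM against 17.8 and 16.1 TPM. ATP7A, the copper pump, was the third higher gene. The lower ones were ACO1, ATOX1, CCS, FLVCR1, HMOX2, NCOA4, TF and TMEM165, among them FLVCR1, long described as a haem exporter, at 23.0 and 24.0 TPM against 16.6 and 18.4 TPM. Of the other metallothioneins, MT2A was at 6.06 and 11.4 TPM in the controls and at 13.5 and 10.96 TPM after knockdown. Its groups overlapped, and it was not at an unadjusted p under 0.05. MT1E and MT1G were listed at 0 in all 4 libraries.

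The amino acid carriers had the highest median level, and 16 of the 21 tested were not at an unadjusted p under 0.05 in either direction. Their sum was 2904 and 2805 TPM in the controls and 2564 and 2956 TPM in the knockdown libraries, with full overlap of the groups. Of the 21, 2 were higher and 3 lower at that p, 23.8% in either direction, near the 22.0% of all genes. The class median was -0.08. Without shControl 1 it was 0.01, so its sign rests on that library. The count of lower members was 1 without shControl 2 and 0 without shPHF8 1, and that of higher members 1 without shControl 1 or without shPHF8 1.

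The subunits of the large neutral amino acid exchanger were lower together. SLC7A5 was at 408 and 381 TPM in the controls, and in the knockdown libraries at 314 and 333 TPM (-0.28 ± 0.07, limma adjusted p = 0.143). SLC3A2 was at 301 and 329 TPM against 259 and 273 TPM (-0.24 ± 0.08, limma adjusted p = 0.190). Neither gene's groups overlapped, and 82.1% and 84.3% of the control levels were left. Without shPHF8 1 both were above an unadjusted p of 0.05, at -0.24 and -0.21, and SLC3A2 also without shControl 2 (-0.18) and without shPHF8 2 (-0.28). Reads from SLC7A5 pseudogenes may be counted in this gene or lost from it.

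SLC38A5, a sodium-coupled carrier of glutamine, histidine and serine, was at 152 and 173 TPM in the controls and at 256 and 255 TPM after knockdown. This was the largest difference among the amino acid carriers at an unadjusted p under 0.05, 0.65 ± 0.09 (limma adjusted p = 0.0784), and it kept that p in every alternative. SLC38A9, the lysosomal carrier through which arginine is sensed for mTORC1, was at 14.2 and 17.6 TPM against 24.0 and 21.5 TPM (0.50 ± 0.17). Its transcript SLC38A9-001 lay the other way, at 5.72 and 6.08 TPM against 2.83 and 4.68 TPM. SLC38A10 was lower, at 54.4 and 52.6 TPM against 34.3 and 40.7 TPM (-0.50 ± 0.13). SLC38A2, the most abundant of the family, was at 459 and 438 TPM against 477 and 465 TPM, barely apart (0.07 ± 0.06). Of the 7 SLC38 genes tested, 2 were thus higher, 1 lower and 4 at a p above 0.05. Over all genes, 9.90% were higher and 12.1% lower at an unadjusted p under 0.05. SLC38A9 was above an unadjusted p of 0.05 without shControl 1 (0.36), shPHF8 1 (0.42) or shPHF8 2 (0.58), and SLC38A10 without shControl 1, shControl 2 or shPHF8 1 (-0.38 to -0.53).

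Carriers of cystine and cationic amino acids lay near the controls. SLC7A11 was at 124 and 106 TPM in the controls, and in the knockdown libraries at 115 and 120 TPM, between the controls. SLC7A1, which takes up arginine and lysine, was at 109 and 102 TPM against 117 and 116 TPM (0.14 ± 0.08). SLC1A5 was the amino acid carrier with the highest mean level, at 745 and 647 TPM in the controls against 415 and 832 TPM. Its knockdown values lay on either side of the controls, with a difference of -0.24 ± 0.36; without shPHF8 1 it was 0.26 and without shPHF8 2 it was -0.74. Transcript SLC1A5-005 held 12.7% of the gene's TPM in shPHF8 1 and from 61.7% to 65.9% in the other libraries.

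Enzymes and regulators of amino acid supply had 4 of 23 tested higher and 7 lower at an unadjusted p under 0.05, beside 9.90% and 12.1% of all genes, with a median of -0.07. Asparagine synthetase, ASNS, was at 834 and 626 TPM in the controls and at 489 and 532 TPM after knockdown. PHGDH, the first enzyme of serine synthesis, was at 168 and 132 TPM against 92.6 and 94.8 TPM. CHAC1, ATF3, DDIT4, PYCR1 and SHMT2 were lower too, while MTHFD2, DDIT3, ALDH18A1 and SESN2 were higher. MTHFD2, a mitochondrial folate enzyme, was at 369 and 316 TPM against 508 and 543 TPM.

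**Figure D3:**
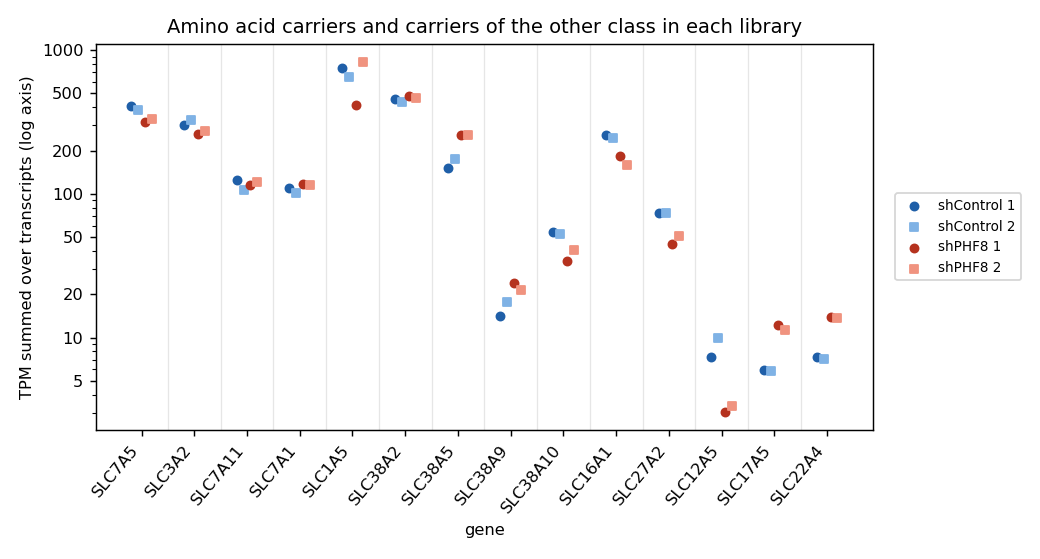
TPM of 9 amino acid carriers and 5 other carriers (log axis) in each of the 4 libraries, circles for number 1 and squares for number 2 of a group, blue for shControl and red for shPHF8. SLC38A5, SLC17A5 and SLC22A4 have both red points above the blue ones, SLC7A5, SLC3A2, SLC16A1 and SLC27A2 both below, and the red points of SLC1A5 lie on either side of the blue ones.

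The mitochondrial carriers lay on both sides of the controls. Their summed level was 3074 and 3030 TPM in the controls and 3038 and 3079 TPM in the knockdown libraries, with the groups overlapping, and the median difference was 0.00. Of 37 tested, both knockdown libraries lay above both controls for 9 and below both for 12, beside 26.0% and 29.3% of all genes. At an unadjusted p under 0.05, 7 were higher and 6 lower, 35.1% in either direction against 22.0% of all genes. The higher genes included carriers of citrate, dicarboxylates, acylcarnitines, ATP and coenzyme A, and the lower ones included carriers of folate, glutathione and basic amino acids. The count of higher members was 6 or 7 with any 1 library left out, whereas that of lower members was 3 without shControl 1, 3 without shControl 2, 1 without shPHF8 1 and 5 without shPHF8 2.

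SLC25A16, a carrier linked to coenzyme A transport, was at 6.36 and 5.74 TPM in the controls, and in the knockdown libraries at 15.1 and 16.3 TPM. Its level after knockdown was 260% of the control level, with a difference of 1.25 ± 0.16 and the smallest adjusted p of all solute carriers (limma, 0.0741). SLC25A16-002 alone carried the difference, at 4.79 and 4.09 TPM against 15.0 and 15.0 TPM, while SLC25A16-007 was at 1.58 and 1.65 TPM against 0.113 and 1.28 TPM. SLC25A42, which imports coenzyme A, was at 25.9 and 23.0 TPM against 38.3 and 31.7 TPM (0.50 ± 0.15); it is named after its values were seen.

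Of the 4 carriers of carboxylates, 3 were higher. SLC25A1, which exports citrate for lipid synthesis, was at 44.9 and 52.8 TPM in the controls and at 97.7 and 88.3 TPM after knockdown (0.92 ± 0.13, limma adjusted p = 0.0782). SLC25A10, the dicarboxylate carrier, was at 37.4 and 35.8 TPM against 56.4 and 57.7 TPM (0.63 ± 0.10, limma adjusted p = 0.0900). SLC25A21, the oxodicarboxylate carrier, was at 38.0 and 30.5 TPM against 53.0 and 62.7 TPM (0.74 ± 0.16). In these 3 genes both knockdown libraries lay clearly above both controls. SLC25A11, the oxoglutarate carrier, was at 47.6 and 36.1 TPM against 49.8 and 47.5 TPM, and its groups overlapped. Thus 3 of 4 carboxylate carriers were at an unadjusted p under 0.05, all higher, with a median of 0.69, beside 9.90% of all genes; this grouping, and the naming of SLC25A21 and SLC25A11, was made after the values had been seen.

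SLC25A20, which brings acylcarnitines in for fatty acid oxidation, was at 18.0 and 22.8 TPM in the controls, and in the knockdown libraries at 36.2 and 35.1 TPM (0.79 ± 0.16). SLC25A25, an ATP-Mg/phosphate carrier, was at 21.0 and 30.9 TPM against 50.5 and 52.2 TPM (0.98 ± 0.21). Both had no overlap and stayed at an unadjusted p under 0.05 in every alternative, as did SLC25A1, SLC25A10 and SLC25A16. The abundant ADP/ATP and phosphate carriers lay closer to the controls: SLC25A5 differed by -0.05 ± 0.05, SLC25A6 by -0.09 ± 0.05 and SLC25A3 by -0.02 ± 0.07. SLC25A5 has many processed pseudogenes and SLC25A6 is listed at both pseudoautosomal copies, so how their reads were divided is uncertain.

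On the lower side, SLC25A43, a carrier without an assigned substrate, was at 9.36 and 9.89 TPM in the controls and at 5.42 and 5.15 TPM after knockdown (-0.76 ± 0.17). SLC25A32, which brings folate into mitochondria, was at 61.1 and 45.4 TPM against 33.2 and 37.0 TPM (-0.57 ± 0.18). SLC25A39, which imports glutathione, was at 107 and 108 TPM against 83.8 and 90.9 TPM (-0.30 ± 0.09). These 3 were below both controls in both knockdown libraries. SLC25A30, SLC25A29 (basic amino acids) and SLC25A46, a protein of the outer mitochondrial membrane, made up the rest, at -0.60 ± 0.18, -0.68 ± 0.22 and -0.45 ± 0.15; SLC25A46 is named after its values were seen. Of the 5 lower genes under the naming rule, SLC25A43 was above an unadjusted p of 0.05 without shPHF8 2 (-0.73), and SLC25A29 with any 1 library left out (-0.59 to -0.77). SLC25A30 (-0.50 to -0.63) and SLC25A39 (-0.24 to -0.30) were above it without shControl 1, shControl 2 or shPHF8 1. SLC25A32 was above it without shControl 1 (-0.36), shPHF8 1 (-0.50) or shPHF8 2 (-0.65).

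The mitoferrins and the glycine carrier, named above as serving haem synthesis, did not differ beyond their spread. SLC25A38 was at 63.6 and 59.5 TPM in the controls, and in the knockdown libraries at 60.0 and 73.3 TPM. SLC25A28 was at 22.4 and 23.2 TPM against 14.7 and 22.4 TPM. SLC25A37, the erythroid mitoferrin, was at 26.1 and 69.4 TPM against 26.0 and 29.6 TPM. In SLC25A37 1 control stood apart: the difference was -0.60 ± 0.49, and 0.09 without shControl 2. Of 11 erythroid markers other than carriers, 6 were higher at an unadjusted p under 0.05 and none lower, beside 9.90% and 12.1% of all genes. These 6 were the globins HBG1, HBG2, HBE1, HBA1 and HBZ and the factor KLF1. The sums over the 11, mostly globin, were 10096 and 10873 TPM in the controls and 16045 and 15288 TPM in the knockdown libraries. GATA1, the master erythroid factor, lay below both controls, at 339 and 343 TPM against 311 and 307 TPM (-0.14), and was not at an unadjusted p under 0.05.

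Genes outside the family that pass metabolites or ions into mitochondria had 3 of 19 tested higher and none lower at an unadjusted p under 0.05, with a median of 0.13. Over all genes 9.90% were higher, 12.1% lower and 22.0% in either direction. ABCB6, a porphyrin transporter, was at 8.02 and 10.9 TPM in the controls and at 21.0 and 23.2 TPM after knockdown. SFXN1, a mitochondrial serine carrier, was at 109 and 105 TPM against 131 and 136 TPM. Both genes lay above both controls in both knockdown libraries.

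**Figure D4:**
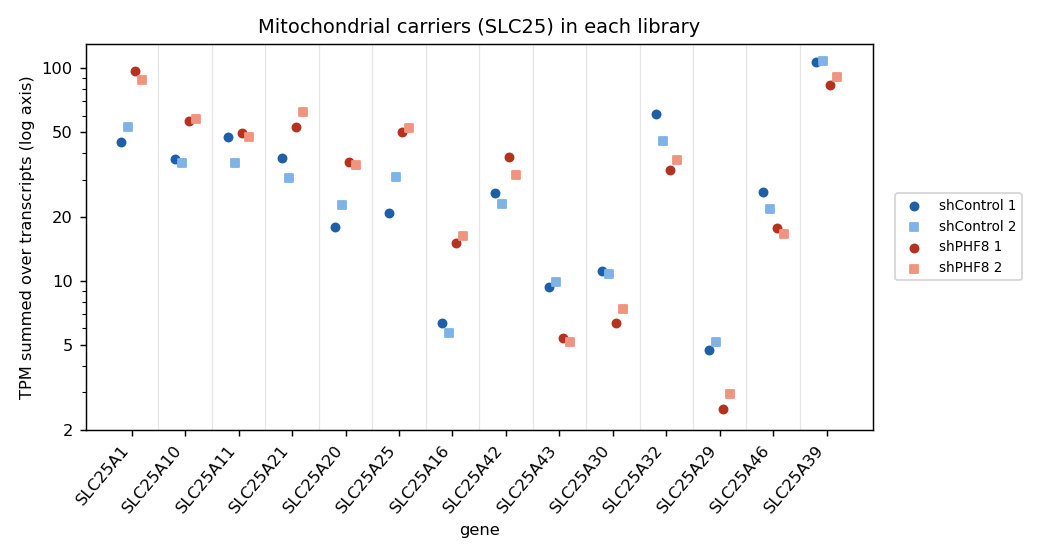
TPM of 14 SLC25 carriers (log axis) in each of the 4 libraries, circles for number 1 and squares for number 2 of a group, blue for shControl and red for shPHF8. The carboxylate carriers SLC25A1, SLC25A10 and SLC25A21 have both red points above both blue points and SLC25A11 does not, while SLC25A43, SLC25A30, SLC25A32, SLC25A29, SLC25A46 and SLC25A39 have both below.

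The other carriers leaned lower. Their summed level was 2730 and 2797 TPM in the controls and 2588 and 2503 TPM in the knockdown libraries, with no overlap. Of 95 tested, 5 were higher and 15 lower at an unadjusted p under 0.05, beside 9.90% and 12.1% of all genes. Both knockdown libraries lay below both controls for 40 and above for 18, beside 29.3% and 26.0% of all genes. The class median was -0.14 against -0.02 over all genes. The count of lower members was 12 without shControl 1, 9 without shControl 2, 9 without shPHF8 1 and 8 without shPHF8 2. The median stayed between -0.20 and -0.10.

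SLC16A1 (MCT1), which moves lactate and pyruvate with a proton, was at 256 and 245 TPM in the controls and at 184 and 157 TPM after knockdown. Both knockdown values lay well below the controls, with a difference of -0.55 ± 0.10 (limma adjusted p = 0.103). SLC16A9 and SLC16A13, the other monocarboxylate carriers tested, lay below both controls too, at -0.54 ± 0.20 and -0.32 ± 0.21, neither at an unadjusted p under 0.05. SLC27A2, which activates very long chain fatty acids, was at 73.2 and 72.9 TPM against 44.9 and 50.8 TPM (-0.60 ± 0.11, limma adjusted p = 0.103). SLC43A3, a nucleobase carrier, was at 220 and 245 TPM against 201 and 191 TPM, a small difference of -0.25 ± 0.08. It was above an unadjusted p of 0.05 without shControl 2 (-0.17), shPHF8 1 (-0.28) or shPHF8 2 (-0.21).

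SLC12A5, a potassium-chloride cotransporter best known from neurons, was at 7.28 and 9.93 TPM in the controls, and in the knockdown libraries at 3.02 and 3.34 TPM (-1.19 ± 0.24, limma adjusted p = 0.111). SLC45A4 was at 13.7 and 13.1 TPM against 6.86 and 5.00 TPM (-1.06 ± 0.21). Both genes had both knockdown libraries below both controls, with 36.9% and 44.3% of the control level left, and kept an unadjusted p under 0.05 in every alternative. SLC37A4, the glucose-6-phosphate carrier of the endoplasmic reticulum, was at 5.44 and 1.49 TPM against 0.0525 and 0.0314 TPM. Both knockdown libraries were thus near 0 for SLC37A4, and the controls were themselves apart. SLC37A4 is named after its values were seen, as are the lower genes SLC10A4, SLC22A18, SLC29A3, SLC35B1, SLC35B4, SLC35C1 and SLC8B1.

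The higher genes of this class were few. SLC22A4, the ergothioneine carrier, was at 7.30 and 7.06 TPM in the controls and at 13.9 and 13.7 TPM after knockdown (0.85 ± 0.15, limma adjusted p = 0.103). SLC17A5, which exports sialic acid from lysosomes, was at 5.97 and 5.86 TPM against 12.2 and 11.3 TPM (0.88 ± 0.17, limma adjusted p = 0.104). SLC35A3, the UDP-N-acetylglucosamine carrier of the Golgi, was at 11.6 and 12.8 TPM against 19.4 and 22.6 TPM (0.73 ± 0.16). These 3 showed no overlap and close agreement between libraries of a group. SLC9A2 was at 3.53 and 3.17 TPM against 5.54 and 5.46 TPM. SLC9B1 was listed at 0 in both controls and at 3.09 and 1.18 TPM after knockdown; such a 0 may be a failed estimate. SLC35A3 was above an unadjusted p of 0.05 without shPHF8 2 (0.62), SLC9A2 with any 1 library left out (0.52 to 0.64), and SLC9B1 without either control or without shPHF8 1 (1.12).

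Single families of the class had few members each, and no difference between families was tested. The SLC35 family includes carriers of nucleotide sugars into the Golgi or endoplasmic reticulum. Of its 23 genes, 1 was higher and 3 lower at an unadjusted p under 0.05, beside 9.90% and 12.1% of all genes. The median of the SLC35 genes was -0.04. All 3 SLC44 genes, of the choline transporter family, lay above both controls, as did 26.0% of all genes, with a median of 0.26 and none at an unadjusted p under 0.05. Abundant carriers with overlapping groups were the anion exchanger SLC4A2 at 145 and 175 TPM against 160 and 166 TPM, the nucleoside carrier SLC29A1 at 136 and 153 TPM against 142 and 135 TPM, and the phosphate carrier SLC20A1 at 105 and 163 TPM against 160 and 146 TPM. Of the 5 names that are not carriers, SLC9A3R2 was higher, at 19.2 and 20.2 TPM against 25.4 and 27.7 TPM, and the other 4 were not at an unadjusted p under 0.05.

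The 186 genes are listed as 496 transcripts, and 63 genes have 1 transcript while the most for a gene is 12. Of 463 transcripts tested, 22 were higher and 25 lower at an unadjusted limma p under 0.05, 10.2% in either direction, beside 4.91% higher, 5.38% lower and 10.3% in either direction over the 30266 transcripts tested in all. The groups did not overlap, with the knockdown higher, for 80 member transcripts and lower for 120, beside 21.0% and 22.2% of all transcripts, and 43.2% in either direction. No solute carrier transcript passed adjustment over all transcripts, where 0.00330% did, that is, 1 transcript. These calls fell in 42 genes, and in 17 of them the gene sum was not at an unadjusted p under 0.05. SLC25A24 and SLC30A6 had transcripts at that p on both sides. The transcript examples below were chosen after their values were seen.

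SLC30A6, a zinc carrier of the Golgi, had listed transcripts that differed in opposite directions. SLC30A6-005 was listed at 0 in both controls and at 37.4 and 38.9 TPM after knockdown (limma adjusted p = 0.0802), where it held 61.8% and 58.7% of the gene's TPM. SLC30A6-202 was at 41.3 and 16.8 TPM in the controls, and in the knockdown libraries at 2.08 and 2.24 TPM. The gene sum, at 72.6 and 34.3 TPM against 60.5 and 66.2 TPM, overlapped between groups. SLC25A24, an ATP-Mg/phosphate carrier, had SLC25A24-002 at 28.9 and 28.9 TPM in the controls and listed at 0 in both knockdown libraries. SLC25A24-001 was at 12.0 and 12.8 TPM against 24.5 and 69.1 TPM, so the knockdown libraries also differed from each other.

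In SLC16A1 the sum was alike in the knockdown libraries while its division was not. SLC16A1-001 was at 240 and 235 TPM in the controls and at 151 and 31.3 TPM after knockdown. SLC16A1-201 was at 0.350 and 0.429 TPM against 15.5 and 123 TPM, so it held 78.3% of the gene in shPHF8 2 and 8.40% in shPHF8 1. SLC6A6, the taurine carrier, had SLC6A6-001 at 14.9 and 9.73 TPM in the controls, and in the knockdown libraries at 0.00320 and 0.00177 TPM, and SLC6A6-201 at 71.7 and 1.44 TPM against 90.8 and 90.6 TPM. For SLC6A6-201 the 1.44 TPM of shControl 2 stood apart from the other 3 libraries. Over all members, 9 transcripts were listed at 0 in both libraries of 1 group and above 1 TPM in both of the other, 1.81% of the 496 listed, beside 1.51% of all transcripts. How reads were assigned among the isoforms of a gene is unknown, and its part in these differences was not tested.

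**Figure D5:**
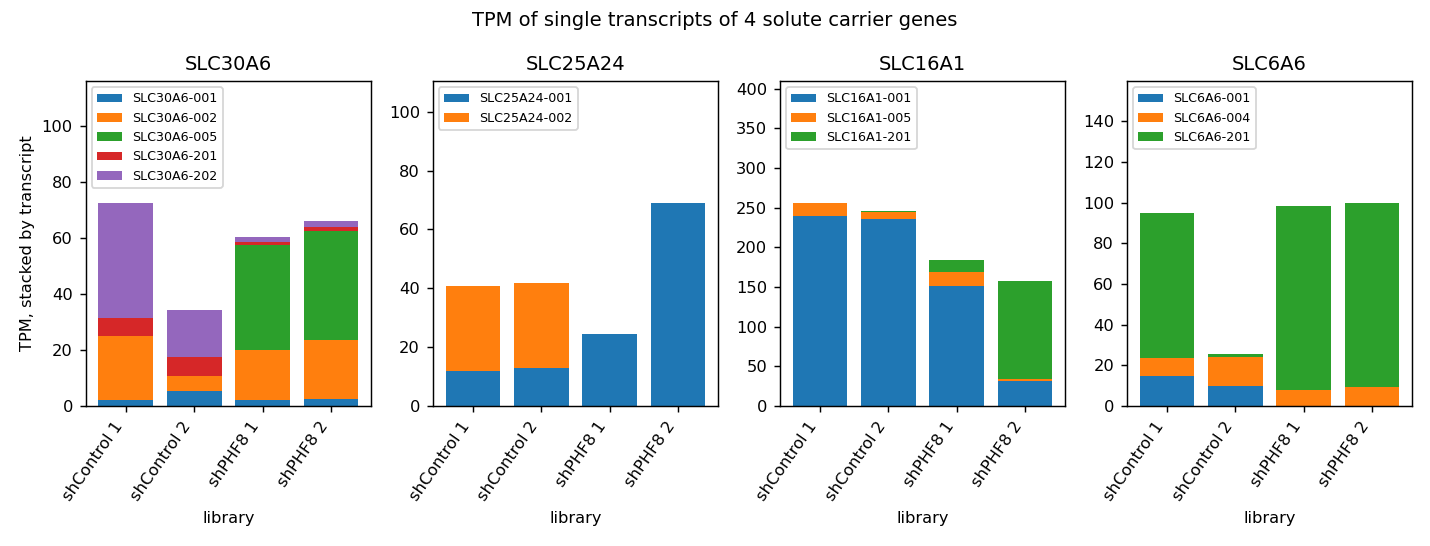
Bars stack the TPM of each listed transcript of SLC30A6, SLC25A24, SLC16A1 and SLC6A6 in the 4 libraries, so the bar height is the gene's TPM. SLC30A6-005 appears only in the shPHF8 libraries, SLC25A24-002 only in the shControl libraries, and the division of SLC16A1 differs between shPHF8 1 and shPHF8 2.

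Agreement within groups set how far the single genes can be read. Between the libraries of a group, 25 of the 182 solute carriers tested (13.7%) were over 2-fold apart, as log2(TPM + 1), in at least 1 group, beside 10.0% of all genes. SLC1A5, SLC6A6, SLC25A37, SLC25A24 and SLC30A6, described above, were among them. Of 11 granulocyte and monocyte markers listed, 6 were absent from the deposited table. The 5 tested were all lower in the knockdown libraries at an unadjusted p under 0.05. Among them, S100A9 was near 0, at 1.65 and 2.17 TPM against 0.575 and 0 TPM. Of 7 lymphocyte markers listed, 4 were absent, and 2 of the 3 tested were lower at that p. Over all genes 12.1% were lower. The tested markers summed to 143 and 161 TPM against 83.1 and 77.9 TPM for granulocytes and monocytes. For lymphocytes they summed to 240 and 204 TPM against 107 and 100 TPM. Of 7 megakaryocyte markers listed, 3 were tested, and 1 was higher at an unadjusted p under 0.05, beside 9.90% of all genes. It was TUBB1, at 11.03 and 13.2 TPM against 35.4 and 34.9 TPM. ITGA2B was at 10.2 and 11.4 TPM against 12.99 and 15.7 TPM, and ITGB3 overlapped. The part of these in the solute carrier values was not tested.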

How the data were processed

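Transcript abundances were deposited by the authors in TPM, per the file headers, with a column for each library; each column sums to 1000000 over 32551 transcripts. A further 4 deposited columns without a unit, treated as signal, were exact multiples of TPM within a library and were not used. HISAT2 2.0.4, StringTie 1.2.3 and the build hg19 are named per the submitters' processing notes; what each did, the annotation used and the strandedness: not given in the sources used here. Without strand, reads of overlapping genes such as SLC7A6 and SLC7A6OS cannot be told apart. Read depth is unknown, so only the spread between libraries shows the precision.

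Solute carrier genes were taken by name, and TPM were summed per gene name. Genes averaging 1 TPM or more were analysed as log2(TPM + 1) with limma 3.58.1 in R 4.3.3 (empirical Bayes with a trend, two-sided, 2 residual and 2.16 prior degrees of freedom), adjusted by Benjamini-Hochberg over all genes at 0.05; transcripts were fitted alike. The step was tested on simulated data. Tables and figures used Python 3.11.15, pandas 2.3.3 and matplotlib 3.10.9. Named were, per class, the 3 members with the highest mean, the 5 with the smallest p in each direction among those at an unadjusted p under 0.05, a fixed set of carriers, and members listed at 0 in 1 group; some of these are not reported here. The members, classes and lists were chosen with earlier results of these data known, so they are no independent evidence; SLC2A4RG and SLC4A1AP were set apart as no carriers after the table was seen. The library numbers were not taken as pairs: over 10972 genes the deviations of same-numbered libraries correlated at -0.029. Promoter windows are RefSeq's, on GRCh38.p14, another build than hg19. Alternatives were the pseudocount (0.1), the filter (none, or a mean of 5 TPM), median-of-ratios and quantile scaling, no trend, the replicate number as a block, and leaving out each library.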

Additional observations from a re-analysis of the deposited data

How the results depend on the processing

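No solute carrier passed adjustment over all genes under any of the 11 alternatives run; the smallest adjusted p of a member ranged from 0.0723 to 0.275. Over all genes, limma called 17 higher and 20 lower with quantile normalization, none of them a solute carrier, and 0 otherwise; the cause was not tested. Of the 34 named members at an unadjusted p under 0.05, 14 kept it under every alternative (among them SLC12A5, SLC16A1, SLC17A5, SLC22A4, SLC25A1, SLC25A10, SLC25A16, SLC25A20, SLC25A25, SLC27A2, SLC38A5, SLC45A4 and SLC48A1) and none changed direction. The metal median was 0.16 with quantile normalization. The amino acid median was -0.042 without a filter and -0.042 with a mean of at least 5 TPM. That filter tests fewer features and left 3 higher members of the class other and 14 higher and 14 lower transcripts. Without a trend 1 amino acid carrier was lower. With the replicate block, which spends a degree of freedom on numbers that do not pair the libraries, 14 members were lower, with 1 metal, 1 mitochondrial and 9 other carriers among them, 1 amino acid carrier was higher, and 14 transcripts were lower.

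Leaving out each library in turn, where the lone library of a group is taken to vary like the other group, gave 14 to 20 higher and 11 to 20 lower members with a median from -0.07 to -0.03. The ranges were 1 to 3 higher and 0 to 3 lower with medians from -0.065 to 0.011 for amino acid carriers, 2 to 5 and 1 to 2 with 0.047 to 0.13 for metal carriers, 6 to 7 and 1 to 5 with -0.03 to 0.03 for mitochondrial carriers, and 4 to 6 and 8 to 12 with -0.20 to -0.10 for the others. Transcripts ranged from 19 to 29 higher and 21 to 31 lower, and members with groups apart from 53 to 63 higher and 76 to 93 lower, as 1 library is easier to separate from 2. With 2 libraries a group and no read counts, small differences of low genes are not detectable.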
